A study of Mus musculus with 3 samples.

Results

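Cells of the basophil and mast lineage were found among cells of the E14.5 mouse lung that had been sorted for surface proteins and sequenced one by one. A cell counted as a member where its barcode held at least 5 unique transcript molecules (UMIs) of Mcpt8, Hdc and Cyp11a1 together, fewer than 20 of the complement genes C1qa, C1qb and C1qc together and at most 5 of the epithelial gene Epcam. A barcode was kept from 1000 UMIs and 500 detected genes upwards if mitochondrial UMIs were no more than 10%, which left 9546 barcodes, and 66 of these were members. They came from 3 libraries of single-cell RNA, 2 of cells sorted as Epcam+ Icam+, with 22 members in replicate 1 and 31 in replicate 2, and 1 of cells sorted as Epcam+, with 13 members. Every library was made from lungs of E14.5 embryos of C57/B6 females, which had been pooled, dissociated with enzymes and stained with antibodies to Epcam and Icam1, and the labels name no transgene, mutation or drug. The comparison cells were macrophages of the same libraries, with at least 20 UMIs of C1qa, C1qb and C1qc and at most 5 of Epcam, which numbered 438 and 427 after the Epcam+ Icam+ sort and 48 after the Epcam+ sort.

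Basophils and mast cells are granulocytes that carry the high-affinity IgE receptor and store histamine, which the enzyme encoded by Hdc makes from histidine. Both depend on the transcription factor Gata2. Mast cells fill their granules with chymases, tryptases and carboxypeptidase A, whereas mouse basophils express the protease gene Mcpt8 and are a source of the cytokines encoded by Il4 and Il13. Basophils of the mouse lung are known to respond to interleukin 33 through the receptor encoded by Il1rl1 and to express Il6, Il13 and several chemokines, and mast cell progenitors settle in mouse tissues before birth.

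Members were rare in every library. They made up 0.648% of the barcodes kept in Epcam+ Icam+ replicate 1 (exact binomial 95% interval 0.407 to 0.979%), 0.981% in Epcam+ Icam+ replicate 2 (0.667 to 1.39%) and 0.435% in the Epcam+ library (0.232 to 0.742%). The 3 intervals overlapped one another, and intervals here cover counting error only. Of members and macrophages combined, members were 4.78% and 6.77% after the Epcam+ Icam+ sort and 21.3% after the Epcam+ sort, where macrophages were few. The median member held 13146.5 and 12280 UMIs after the Epcam+ Icam+ sort and 21235 after the Epcam+ sort, against 22546, 23481 and 25125 UMIs in macrophages. No member's barcode recurred in another library, and none of the 66 was among the barcodes with the highest doublet scores.

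The counts that chose the members left a clear gap around the limit. Just inside it, no barcode held 5 to 7 UMIs of Mcpt8, Hdc and Cyp11a1, and 1 barcode in each library held 8 to 10, while the median member held 58.5 and 60 UMIs after the Epcam+ Icam+ sort and 73 after the Epcam+ sort. Just outside it, 2 barcodes of Epcam+ Icam+ replicate 1 and none of the other libraries held 2 to 4 UMIs. Hdc reached 5 UMIs in 65 of the 66 members, whereas Mcpt8 was at 0 in 26 of them. These values describe the choice and support nothing.

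Other markers were set against the label. Gata2, which the choice did not use, was found in 64 of the 66 members, and Il4 or Il13 in 62. Neutrophil markers were nearly absent: all 10 genes of the list, among them Elane and Ly6g, stood at 0 in the members of Epcam+ Icam+ replicate 1 and of the Epcam+ library, and in replicate 2 the list summed to 45.6 CPM, the UMIs of a gene in each 1000000 UMIs of the class. Of the 9 eosinophil markers Epx stood at 0 UMIs in the members of every library, and the list summed to 32.7 and 97.6 CPM after the Epcam+ Icam+ sort and 4.2 CPM after the Epcam+ sort. The macrophage markers summed to 2251, 3458 and 621 CPM in members, against 24877, 24769 and 20190 CPM in macrophages. In the Epcam+ Icam+ replicate 2 library 1 member with no Gata2 UMI held all 341 member UMIs of the lysozyme gene Lyz2 in that library and 11 of the 25 of the proliferation gene Mki67, with 10 UMIs of Hdc. The other member without Gata2 was the shallowest, with 1334 UMIs in the Epcam+ library.

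The start regions of 3 genes that mark these cells are shown because Gata2 was present in nearly all members and its protein binds sites that hold AGATAA, or the same letters with a final G (AGATAG), or either of these with T first (TGATAA, also TGATAG). Each stretch runs from 250 bases before to 50 after the RefSeq start on GRCm38.p6, read along the gene's own strand, and capitals mark a match on either strand.
Hdc, chr2:126618629-126618928, minus strand: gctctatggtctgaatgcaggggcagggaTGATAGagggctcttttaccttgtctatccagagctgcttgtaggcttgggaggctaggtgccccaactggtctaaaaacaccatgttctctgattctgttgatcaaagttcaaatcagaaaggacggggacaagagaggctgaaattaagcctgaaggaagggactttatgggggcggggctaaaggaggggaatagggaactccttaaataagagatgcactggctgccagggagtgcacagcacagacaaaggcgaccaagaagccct
Cma1, chr14:55944626-55944925, minus strand: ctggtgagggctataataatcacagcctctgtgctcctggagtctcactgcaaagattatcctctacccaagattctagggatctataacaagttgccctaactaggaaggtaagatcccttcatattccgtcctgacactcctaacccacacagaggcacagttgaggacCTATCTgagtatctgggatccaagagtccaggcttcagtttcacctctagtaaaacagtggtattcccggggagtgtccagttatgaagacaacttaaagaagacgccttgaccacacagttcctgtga
Mcpt8, chr14:56085148-56085447, minus strand: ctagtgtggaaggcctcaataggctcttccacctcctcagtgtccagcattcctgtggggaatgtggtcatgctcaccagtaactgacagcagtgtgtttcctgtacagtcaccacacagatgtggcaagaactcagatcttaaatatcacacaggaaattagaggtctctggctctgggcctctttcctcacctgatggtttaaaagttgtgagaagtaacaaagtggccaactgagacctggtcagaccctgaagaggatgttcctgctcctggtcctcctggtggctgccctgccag
The Hdc stretch held 1 match 221 bases before the start, and the Cma1 stretch 1 match on the opposite strand 79 bases before it. The Mcpt8 stretch held none, which says only that these letters are not in this window. Of 27025 mouse promoters of the same length 30.2% held a match, compared with 10 of the 17 promoters found for a list of 20 basophil genes and 9 of the 15 found for a list of 20 mast cell genes. The lists share Gata2, and these counts are a description.

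The members fell into a smaller mast-like kind and a larger remainder with basophil transcripts. The summed count of Cpa3, which encodes carboxypeptidase A3, Cma1, which encodes mast cell chymase, and Tpsb2, which encodes a tryptase, was at most 27 UMIs in 49 members and at least 141 in the other 17, with none between. The limit of 50 UMIs was set after these values were seen, so the kinds are described here with no test. Mast-like cells were 4 of the 22 members in Epcam+ Icam+ replicate 1 (18.2%, interval 5.19 to 40.3%), 5 of 31 in replicate 2 (16.1%, 5.45 to 33.7%) and 8 of 13 in the Epcam+ library (61.5%, 31.6 to 86.1%). The mast-like share was thus highest in the Epcam+ library, whose interval reached down into those of the others.

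**Figure D1:**
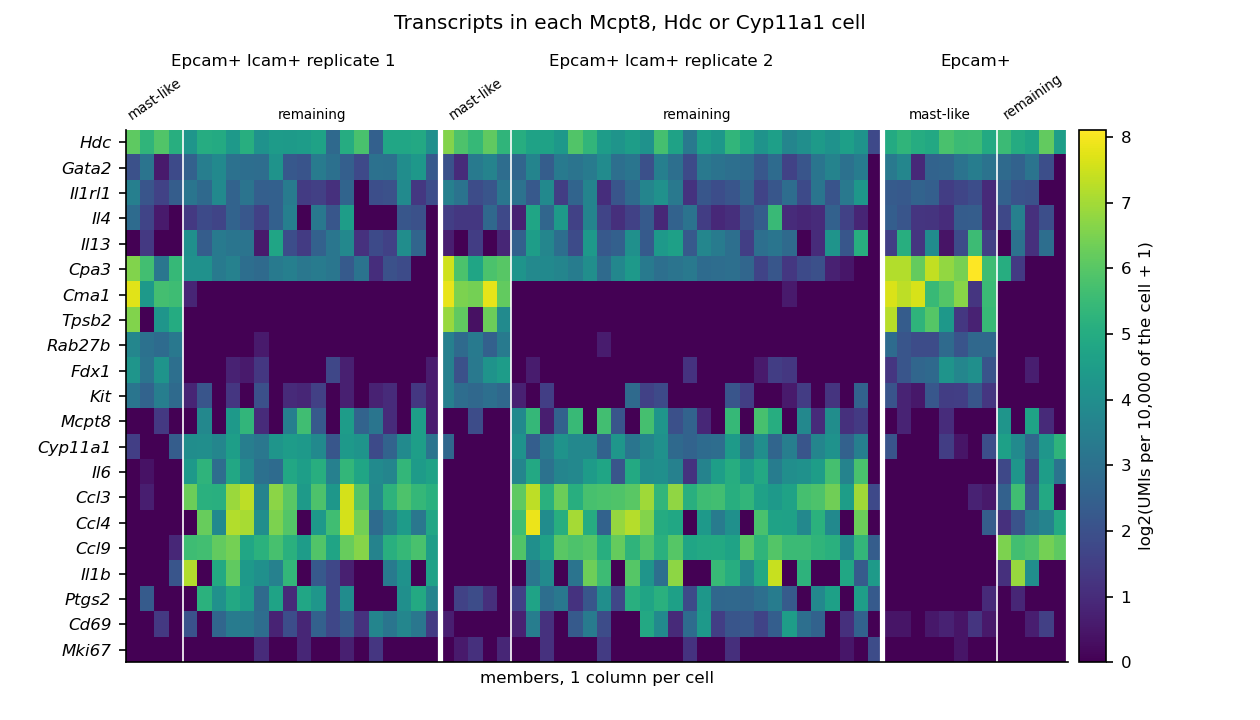
Transcripts of 21 genes in each of the 66 members, 1 column per cell, grouped by library and by kind, with the mast-like cells left of the remaining members. The colour is log2 of the UMIs in each 10000 UMIs of the cell, plus 1. Hdc and Gata2 run through both kinds, Cma1 and Tpsb2 stay with the 17 mast-like cells, and Il6, Ccl3 and Ccl9 with the 49 remaining members.

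Cma1 and Tpsb2 were at or near 0 in the remaining members. Cma1 stood at 7088 and 12360.4 CPM in the mast-like cells of the Epcam+ Icam+ libraries and at 10745 CPM in those of the Epcam+ library, against 3.9, 2.7 and 0 CPM in the remaining members. Tpsb2 stood at 2808, 4515 and 4229 CPM in mast-like cells and had no UMI in the 49 remaining members. Cpa3 was less exclusive, with 4742, 6861 and 12359 CPM in mast-like cells and 655, 618 and 588 CPM in the remaining members. Cma1, Tpsb2 and Cpa3 chose the kinds, so their values repeat the choice. On mm10 the protein-coding gene Cma1 lies at chr14:55941451-55944675 and Cpa3 at chr3:20215620-20242181, both on the minus strand.

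Several genes outside that choice, picked after their values were seen, lay on the same side, which describes the split and supports nothing. Tph1, which encodes the enzyme that starts serotonin synthesis, stood at 849, 1383 and 535 CPM in mast-like cells and had no UMI in the remaining members. Fdx1, which encodes an electron carrier for mitochondrial cytochrome P450 enzymes, stood at 1198, 1029 and 789 CPM in mast-like cells, against 35.1, 21.6 and 20.3 CPM in the remaining members. Kit, the receptor for stem cell factor, stood at 699, 686 and 201 CPM in mast-like cells, against 93.5, 75.6 and 0 CPM in the remaining members. Rab27b, a regulator of granule release, Smpx, Hapln1 and the progenitor gene Cd34 were likewise higher in mast-like cells of every library. The cathepsin G gene Ctsg had 5 UMIs in all members and the mast cell receptor gene Mrgprb1 none, and the chymase gene Mcpt4 lay almost wholly in 1 mast-like cell of replicate 1, which held 119 of its 124 UMIs.

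Il6, Ccl9, Ccl3, Ccl6 and Il1b lay mainly in the remaining members. Il6, which encodes interleukin 6 and lies at chr5:30013114-30019981 on the plus strand of mm10, had 1 UMI in all 17 mast-like cells, whereas it stood at 2038 and 1757 CPM in the remaining members of the Epcam+ Icam+ libraries and at 1055 CPM in those of the Epcam+ library. At least 5 UMIs of Il6 were found in 43 of the 49 remaining members. The chemokine gene Ccl9 had 1 UMI in mast-like cells, against 4397, 3686 and 6697 CPM in the remaining members, and was present in each of the 49. Il1b, Ccl3, Ccl6 and the phagocyte receptor gene Clec4e also lay on this side in every library. Other cytokine genes did not: Il4 was found in 16 of the 17 mast-like cells and 42 of the 49 remaining members, Tgfb1 in 16 and 46, and the chemokine gene Ccl1 in 6 mast-like cells with 26 UMIs and in none of the remaining members.

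**Figure D2:**
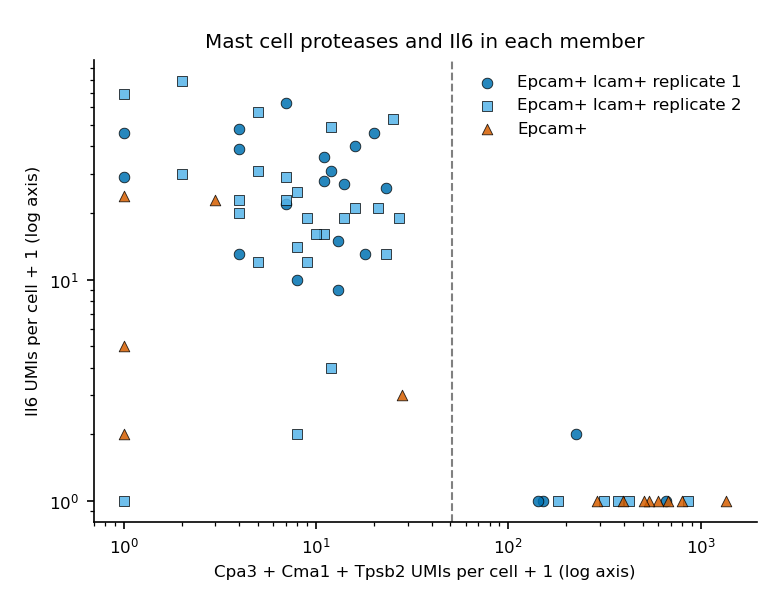
UMIs of Cpa3, Cma1 and Tpsb2 together (horizontal log axis, plus 1) against UMIs of Il6 (vertical log axis, plus 1) in each of the 66 members, with a marker for each library and a dashed line at the limit of 50 UMIs. Of the 17 mast-like cells, 16 sit on the floor of Il6, and no cell sits between 27 and 141 protease UMIs.

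Several lineage genes ran through both kinds. Hdc stood at 4879, 5699 and 3806 CPM in mast-like cells, against 2249, 2194 and 3998 CPM in the remaining members. Gata2 stood at 424, 609 and 709 CPM in mast-like cells, against 819, 645 and 548 CPM. Il1rl1, the interleukin 33 receptor gene, stood at 462, 598 and 312 CPM in mast-like cells, against 530.1, 561 and 264 CPM. For Hdc, Gata2 and Il1rl1 the 2 kinds overlapped across libraries.

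Il13 and Prss34 did not keep to one kind. Il13, a type 2 cytokine gene, stood at 62.4 and 88.5 CPM in mast-like cells of the Epcam+ Icam+ libraries but at 1090.4 CPM in those of the Epcam+ library, where 1 mast-like cell held 88 UMIs, against 678, 850.0 and 365 CPM in the remaining members. Prss34, a protease gene of mouse basophils, stood at 499, 243 and 2789 CPM in mast-like cells, against 238, 162 and 60.9 CPM in the remaining members. It was placed on the basophil list, and in these libraries its level was higher in the mast-like cells of each. The 3 genes that chose the members were uneven as well: Mcpt8 stood at 37.4, 99.6 and 26.5 CPM in mast-like cells against 1119, 1527 and 1177 CPM in the remaining members, and Cyp11a1, which encodes the first enzyme of steroid synthesis, at 99.8, 99.6 and 111 CPM against 1294, 912 and 1420.5 CPM.

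Mcpt8 itself was patchy among the cells. At least 5 UMIs were found in 23 members, 1 of them mast-like, and the highest count in 1 cell was 103. Members with at least 5 UMIs of Mcpt8 numbered 8 and 13 after the Epcam+ Icam+ sort and 2 after the Epcam+ sort, too few for the planned test, which needed 10 cells on each side. In the Epcam+ Icam+ libraries Il6 stood at 2362 and 1867 CPM in the Mcpt8-rich members, against 1081 and 1048 CPM in the others, and Ccl4 at 7469 and 5225 CPM against 1823 and 1814 CPM. The members poor in Mcpt8 include 16 of the 17 mast-like cells.

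Members were then compared with macrophages of the same library. UMIs were summed over the cells of each class and library, and 6544 genes were tested with edgeR's quasi-likelihood test with library as a block and Benjamini-Hochberg adjustment, without the 7 genes of the rules. Of these genes 30.0% passed, 968 higher in members (14.8%) and 992 lower (15.2%), with a median log2 fold change of -0.07. The labels name no pool or litter for any library, so a p-value here reflects spread among 3 libraries that may be technical only, and both classes had been picked by transcripts of the same cells. A gene near 0 in macrophages entered the test only through the members, where it is high, so its p-value supports nothing. Gata2 and Il6 below are examples, and the limit holds for every gene below that was near 0 in macrophages. Very large differences, such as those of Cd200r3, Slc18a2, Itgb7 and Lat, are therefore given for their size only.

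**Figure D3:**
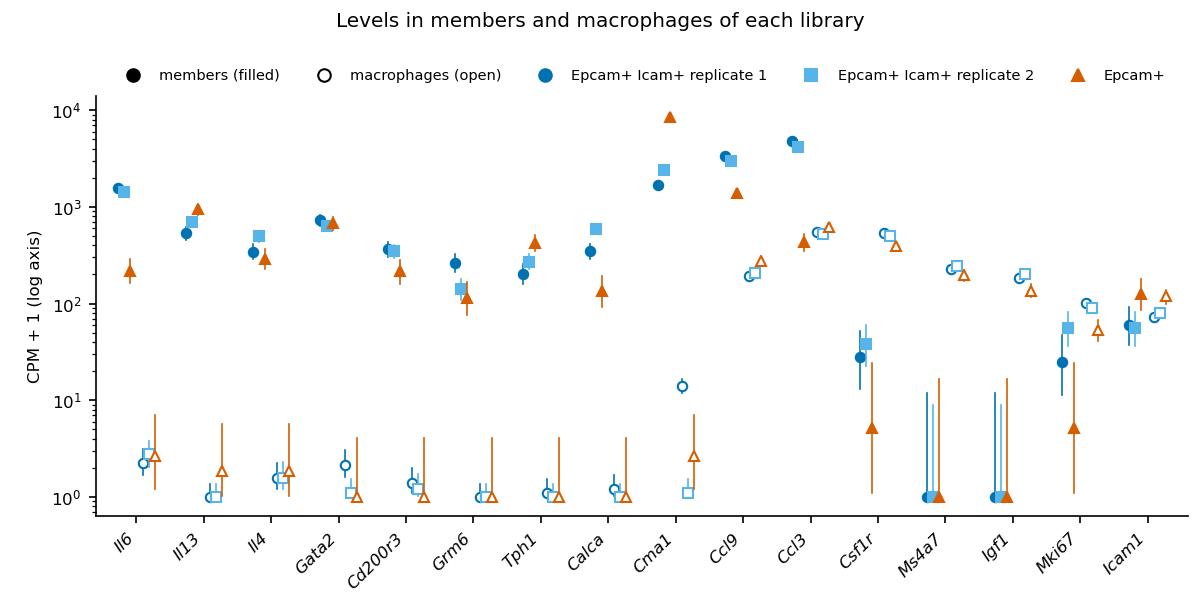
CPM plus 1 (log axis) of 16 genes in members (filled) and in macrophages (open) of each of the 3 libraries, with exact Poisson 95% intervals. Il6, Il13, Il4, Gata2, Grm6, Tph1 and Calca stand near the floor in macrophages, whereas Ccl3 stands well above it. Ms4a7 and Igf1 stand at 0 UMIs in members, and Icam1 overlaps between the classes.

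The genes named for the size of their difference began with Il13, Grm6, Calca, Tph1, Wdr95 and Slc6a4. Il13 had 179, 323 and 224 UMIs in members, against 0, 0 and 1 in macrophages, a ratio of 15252 (exact interval 2729 to 603239). Grm6, a glutamate receptor gene, had 180 UMIs in members and none in macrophages, and was at least 1260-fold higher at a floor of 3 counts over the macrophages. Tph1 had 294 UMIs in members and 1 in macrophages, Slc6a4, which encodes the serotonin transporter, 115 and 1, and Calca, which encodes calcitonin and its related peptide, 421 and 2. Wdr95 had 98 UMIs in members and none in macrophages (at least 686-fold higher). Each of these 6 genes had at most 2 UMIs in the 913 macrophages.

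The IgE receptor and the lineage factor followed. Fcer1a, the receptor's IgE-binding chain, had 47 UMIs in members and none in macrophages (at least 329-fold higher), and Ms4a2, its beta chain, 102 and 2. Gata2 stood at 725, 638 and 676 CPM in members, against 1.16, 0.0979 and 0 CPM in macrophages. Higher in 3 of 3 libraries, its log2 difference was 10.39 with an SE of 0.373 (edgeR, adjusted p = 2.33e-09). Cd200r3, an activating receptor of basophils and mast cells, was higher by 10.38 (SE 0.311, adjusted p = 7.46e-10). The lipoxygenase gene Alox15 (75 UMIs in members and 1 in macrophages) and the water channel gene Aqp3 (70 and 1) completed the genes named by size together with Il6.

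Il6 was higher in members than in macrophages of every library, and within members it lay almost wholly in the remaining members. Mast-like cells, which were 8 of the 13 members of the Epcam+ library, held 1 UMI of Il6 in all libraries together. Over all members Il6 stood at 1556 and 1412 CPM in the Epcam+ Icam+ libraries and at 218 CPM in the Epcam+ library, against 1.26, 1.76 and 1.67 CPM in macrophages. The log2 fold change was 10.00 (SE 0.332, edgeR adjusted p = 1.26e-09). After each cell was thinned to 3000 UMIs, an Il6 UMI was found in 81.8% of members of Epcam+ Icam+ replicate 1 (59.7 to 94.8%), 74.2% of replicate 2 (55.4 to 88.1%) and 25% of the Epcam+ library (5.49 to 57.2%), and before thinning in 86.4%, 80.6% and 38.5%. In barcodes with over 5 Epcam UMIs the thinned Il6 share was 0.287%, 0% and 0.0799% and its upper 95% limit was at most 0.623%. The median depths of those barcodes were 21063.5, 21475 and 28441 UMIs. They included 18 barcodes with at least 5 UMIs of Mcpt8, Hdc and Cyp11a1, most of which held Il6 before thinning.

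The listed genes were counted by role, and each list had been drawn up with earlier results of these data known. A gene near 0 in macrophages could pass the low-count filter only through the members, where it is high. The counts of higher genes in each list are therefore a description and support nothing. Over all genes tested 14.8% were higher in members and 15.2% lower. Of the 20 basophil genes Mcpt8 was a rule gene and 17 were tested, of which 15 were higher in members and Cebpa, a factor of granulocyte and macrophage development, was lower. Of the 20 mast cell genes 11 were tested and 10 were higher, and 9 were not tested, of which Mcpt1, Mrgprb1 and Mrgprb2 had no UMI in members. Ifitm1, an interferon-induced membrane protein gene, stood at 16635, 14604 and 7678 CPM in members against 15.6, 22.8 and 22.5 CPM in macrophages.

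The genes of histamine, eicosanoids and steroids split. Of 9 tested, 6 were higher in members and 3 lower, with a median of 2.87. Slc18a2, which loads amines into granules, was higher by 9.34 on the log2 scale (SE 0.417, adjusted p = 1.35e-08), Alox5, which starts leukotriene synthesis, by 4.77 (SE 0.217, adjusted p = 1.53e-08), and Ptgs2, the inducible prostaglandin synthase, by 4.72 (SE 0.349, adjusted p = 8.51e-07). The next enzymes were lower. Ltc4s, leukotriene C4 synthase, had 3 UMIs in members against 2542 in macrophages, 40.3-fold lower (exact interval 13.8 to 196), and Hpgds, prostaglandin D synthase, stood at 38.6, 36.9 and 16.8 CPM in members against 226, 215 and 230.0 CPM in macrophages. Within the members all UMIs of Hpgds lay in mast-like cells, at 162, 188 and 21.2 CPM.

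Most tested genes of secreted signals were higher in members, which for those near 0 in macrophages is a description only. Of 18 cytokines and chemokines tested 12 were higher in members and 3 lower, with a median of 2.85. Il4 stood at 345, 495 and 289.7 CPM in members against 0.58, 0.588 and 0.833 CPM in macrophages. Il1b was higher by 3.83 (SE 0.225, adjusted p = 1.25e-07), Hgf, the hepatocyte growth factor gene, by 4.97 (SE 0.238, adjusted p = 2.46e-08) and Osm, which encodes oncostatin M, by 3.88 (SE 0.253, adjusted p = 2.88e-07). Tnf was lower, at 11.9, 32.5 and 8.4 CPM in members against 45.1, 63.5 and 232 CPM in macrophages. The monocyte attractants Ccl2 and Ccl7 had no UMI in members and 13209 and 4724 in macrophages. Il3, Il5 and Il9 had no UMI in members.

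Receptors, granule genes, signalling genes and transcription factors were counted in the same way. Of 18 receptors 11 were higher and 3 lower (median 1.65), with Il1rl1 at 514, 568 and 302 CPM in members against 2.41, 1.76 and 1.67 CPM in macrophages. Of 13 granule and secretion genes 9 were higher and 3 lower (median 1.48). Srgn, the proteoglycan core of the granule, stood at 6106, 5423 and 4962 CPM in members against 601, 566 and 332 CPM in macrophages. Of 15 genes of IgE receptor signalling 6 were higher and 2 lower (median 0.49), the higher ones including the adaptor gene Lat at 6.98 (SE 0.533, adjusted p = 1.05e-06). Of 13 transcription factors 5 were higher, among them Gata2 and Ikzf2, and 4 lower, among them Irf8 and Lmo2.

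**Figure D4:**
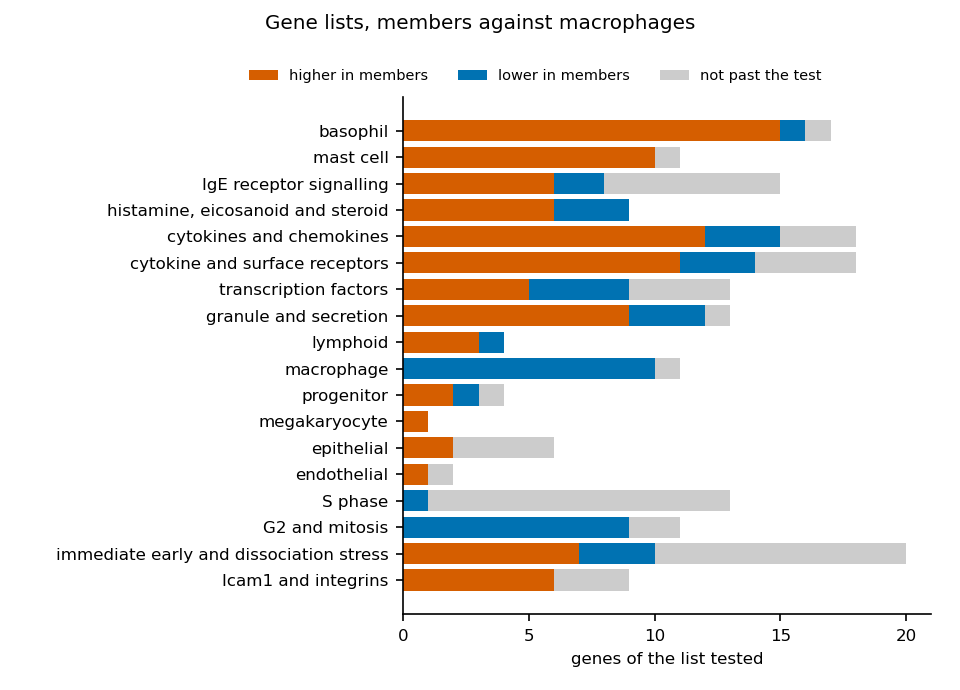
Genes of 18 lists that could be tested in members against macrophages. Bars give the numbers higher in members, lower in members and not past an adjusted p of 0.05, and the lists of basophil (15 of 17 higher) and mast cell genes (10 of 11) hold mostly higher genes, and those of macrophage genes (10 of 11 lower) and of G2 and mitosis (9 of 11 lower) mostly lower ones.

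Most tested genes of macrophages and of G2 and mitosis were lower in members, and most of S phase did not pass the test. The 8 named by size, Ccl2, Ifi207, Ms4a7, Lyve1, Ccl7, Ccl24, Igf1 and Gas6, had no UMI in the members, with bounds from at least 210-fold lower for Ccl2 to at least 50.4-fold lower for Gas6. Of 11 macrophage markers tested 10 were lower and none higher, and the 3 C1q genes were not tested. The macrophages had been chosen by C1q transcripts, and a gene at 0 in members entered the test only through the macrophages. The lower macrophage genes are therefore a description and support nothing. Of 11 genes of G2 and mitosis 9 were lower and none higher, with a median of -1.17, while of 13 S phase genes 1 was lower and 12 did not pass. Mki67 stood at 23.8, 54.2 and 4.2 CPM in members against 100.5, 89.9 and 52.5 CPM in macrophages (log2 fold change -1.24, SE 0.351, adjusted p = 0.0187). Thinned to 3000 UMIs, 1 of 22 and 5 of 31 members of the Epcam+ Icam+ libraries and 0 of 12 of the Epcam+ library held an Mki67 UMI. In macrophages thinned in the same way the share was 15.8%, 13.6% and 14.6%, against 4.55%, 16.1% and 0% in members. By this share members were not lower in Epcam+ Icam+ replicate 2 (interval 5.45 to 33.7%), although their CPM was. Thinned to 2000 UMIs, the share there was 0% in members and 10.8% in macrophages, so its direction depended on the depth. The exact interval of the Epcam+ members reached 26.5%.

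Markers of lymphoid and epithelial cells moved with this comparison as well. The 10 lymphoid markers summed to 541, 547 and 193 CPM in members, with 6 at 0 in each library, against 59.3, 57 and 68.3 CPM in macrophages. Of 4 tested 3 were higher in members (Nkg7, Il7r and Rora) and the B cell gene Cd79b was lower with no UMI in members, while the T cell genes Cd3e and Cd3d were at 0 in members. Cd3g, also a T cell gene of the list, had 59 UMIs in 9 of the 17 mast-like cells, with up to 27 in 1 cell. Of 6 epithelial markers tested 2 were higher in members, Cdh1, which encodes E-cadherin, at 104, 104 and 25.2 CPM against 6.96, 6.17 and 5.0 CPM in macrophages, and the surfactant gene Sftpc by 0.82 on the log2 scale (SE 0.149, adjusted p = 0.00106). The epithelial list summed to 737, 662 and 722 CPM in members, 448, 450.1 and 672 CPM in macrophages and 9088, 9527 and 5015 CPM in the barcodes with over 5 Epcam UMIs. Members held 0 to 5 UMIs of Epcam by rule, and 14, 27 and 20 UMIs in all. The part of lymphoid or epithelial RNA in these values was not tested.

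The sort had used the Icam1 protein, and the members were not set apart from macrophages by its transcript. Icam1 stood at 59.4 and 54.2 CPM in members of the Epcam+ Icam+ libraries and at 126 CPM in those of the Epcam+ library, against 70.9, 79.3 and 117 CPM in macrophages. The log2 fold change of members over macrophages was -0.03 (SE 0.217, adjusted p = 0.93), and that of Epcam+ Icam+ over Epcam+ within members was -0.94 (SE 0.368, adjusted p = 0.0549). Fewer members than barcodes with over 5 Epcam UMIs held an Icam1 UMI, thinned as for Il6. The share was 13.6% (2.91 to 34.9%) and 9.68% (2.04 to 25.8%) in Epcam+ Icam+ members, against 43.4% and 43.5% in those barcodes. In the Epcam+ library it was 25% (5.49 to 57.2%) against 35.7%, inside the members' interval. Thinned to 2000 UMIs, replicate 2 stayed apart, at 3.23% (upper limit 16.7%) against 31.25%. Replicate 1 did not, at 18.2% (5.19 to 40.3%) against 30.9%. Genes of the integrins that bind Icam1 were higher in members than in macrophages. Itgal was higher by 2.45 (SE 0.301, adjusted p = 5.63e-05) and Itgb2 by 2.30 (SE 0.224, adjusted p = 8.06e-06), and Itgb7, an integrin chain known from mast cell progenitors of mice, by 8.33 (SE 0.262, adjusted p = 9.65e-10). Of 9 genes of this list 6 were higher and none lower.

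Members of the Epcam+ Icam+ sort were next set against those of the Epcam+ sort. Of 4391 genes tested with edgeR 22.3% passed, 626 higher (14.3%) and 355 lower (8.08%), with 2 libraries against 1 and 1 residual degree of freedom. In macrophages the same comparison called 39.7% of 11883 genes. The libraries of the 2 sorts were also counted with different versions of Cell Ranger and different gene tables, so the sort, the counting and the library cannot be told apart. With 1 Epcam+ library, the SEs and p-values of every comparison between the sorts take in no spread among Epcam+ libraries. The share of mast-like cells moved with the sort, being 18.2% and 16.1% of members after the Epcam+ Icam+ sort and 61.5% after the Epcam+ sort.

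Most tested chemokine and cytokine genes were higher and most tested mast cell genes lower in the Epcam+ Icam+ members. Of 17 cytokines and chemokines tested 13 were higher and 1 lower, with a median log2 fold change of 1.74 beside 0.06 over all genes. Of 14 mast cell genes 3 were higher and 8 lower (median -1.22), and of 19 basophil genes 11 were higher and Prss34 lower (median 1.40). Il6 was higher by 2.97 (SE 0.187) and Ccl4 by 4.5 (SE 0.153), while Cma1 was lower, at -1.84 (SE 0.103), as was Cpa3, at -2.31 (SE 0.0883). Gata2 did not pass the test (0.22, SE 0.184, adjusted p = 0.418), nor did Il13 (-0.40, SE 0.179, adjusted p = 0.102).

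Within the remaining members alone, some of these differences kept their direction and others did not. Ccl4 stood at 5141 and 4145 CPM in remaining members of the Epcam+ Icam+ libraries, against 710.2 CPM in the 5 of the Epcam+ library, and Il6 at 2038 and 1757 against 1055 CPM. Cd69, an early activation antigen, stood at 569 and 532 CPM against 60.9 CPM, and Ptgs2 at 1384 and 1025 CPM against 20.3 CPM. By contrast Ccl9, which was higher by 1.40 (SE 0.116, adjusted p = 7.49e-16) over all members, stood at 4397 and 3686 CPM in remaining members of the Epcam+ Icam+ libraries, against 6697 CPM in the Epcam+ library. Il1b, higher by 1.57 (SE 0.149, adjusted p = 1.8e-13) over all members, likewise stood lower there, at 2109 and 2455 against 3369 CPM, and Ifitm1 at 21336 and 16606 against 29262 CPM. With 5 cells in the Epcam+ library these values had no test.

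Immediate early genes moved with the sort. Of 18 tested, from a list that dissociation of tissue is known to raise, the median log2 fold change was 1.43 beside 0.06 over all genes. The whole list summed to 5540, 6429 and 5055 CPM in mast-like cells. It summed to 8937, 8457 and 5601 CPM in the remaining members. The part of the mast-like share in this difference was not tested. Egr1 had 80 and 114 UMIs in Epcam+ Icam+ members, against 2 in Epcam+ members, a ratio of 29.0 (7.91 to 241), and Ptgs2 had 368 and 394 against 3. The part of this response in the chemokine values was not tested.

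Most of the genes with the largest differences between the sorts in members differed the same way in macrophages. Lilrb4a, Hist1h1b, Rnasek, Jdp2, Ube2v1 and Ctss had no UMI in Epcam+ members and were at least 48.5, 15.4, 14.3, 7.17, 6.17 and 5.38-fold higher in Epcam+ Icam+ members. All but Ctss were also higher in Epcam+ Icam+ macrophages, by log2 fold changes from 4.07 for Ube2v1 to 6.82 for Rnasek. Ptp4a1 had no UMI in Epcam+ Icam+ members and was at least 19.0-fold lower, and Coro1b (-4.14, SE 0.601, adjusted p = 1.21e-07), Taf6l and Gpx3 were, like Ptp4a1, lower in both classes. Lilrb4a, Rnasek, Ube2v1 and Ptp4a1 share exonic bases with a gene that only 1 of the gene tables holds, so their counts are uncertain between sorts. Tpsg1, a tryptase gene, was lower in Epcam+ Icam+ members, at -4.39 (SE 0.333, adjusted p = 1.33e-17) and lay wholly in mast-like cells. Taf6l had 3 UMIs in Epcam+ Icam+ members against 37 in Epcam+ members (41.3-fold lower, interval 13.1 to 209), Gpx3 had 2 against 17 and Ahi1 3 against 18.

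**Figure D5:**
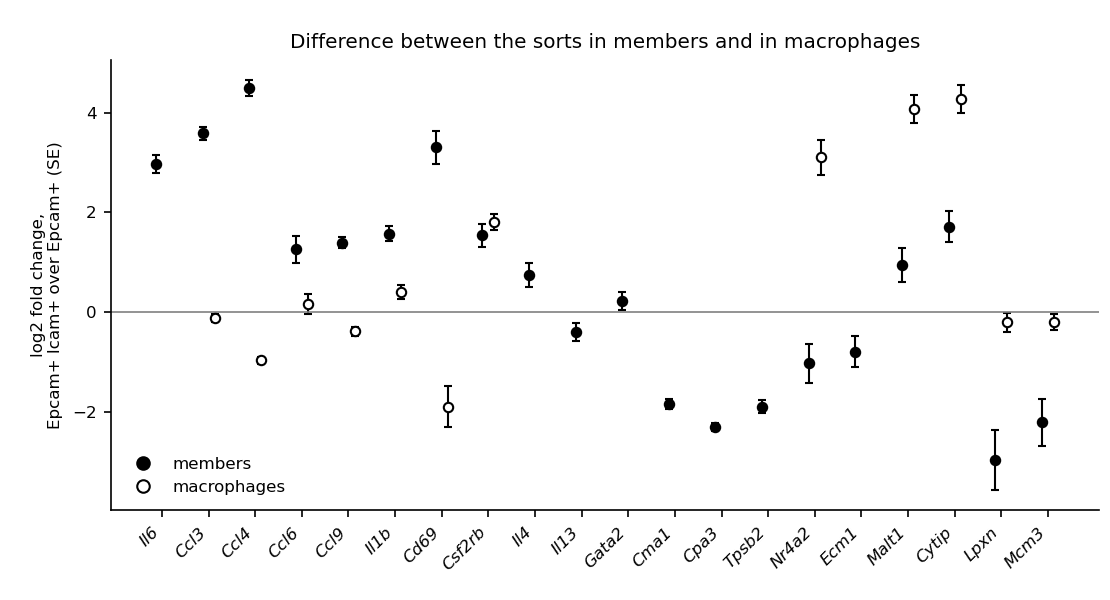
Log2 fold change of Epcam+ Icam+ over Epcam+ (2 libraries against 1) with its SE for 20 genes in members (filled) and in macrophages (open). Classes with 3 UMIs or fewer in a sort have no point. Ccl3, Ccl4 and Cd69 lie above 0 in members and below it in macrophages, and Malt1 and Cytip lie higher in macrophages.

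A direct test of the difference between the classes called few genes. The sort difference in members minus that in macrophages passed the test for 66 of 6544 genes (1.01%), 48 higher (0.733%) and 18 lower (0.275%). Ccl3 stood at 4761 and 4161 CPM in Epcam+ Icam+ members and 428 CPM in Epcam+ members, whereas macrophages held 550.0 and 529 CPM after the Epcam+ Icam+ sort and 625 CPM after the Epcam+ sort. Within the remaining members alone the gap was smaller, with Ccl3 at 6240 and 5175 CPM against 2029 CPM. Mast-like cells held 4 UMIs of Ccl3 in all, and the part of their share in these differences was not tested. The difference of the differences was 3.70 (SE 0.185, adjusted p = 2.35e-10) for Ccl3 and 5.47 (SE 0.22, adjusted p = 9.62e-12) for Ccl4, both genes of chemokines that attract leukocytes. Cd69 differed by 5.22 (SE 0.542, adjusted p = 1.44e-05) and Egr1 by 5.92 (SE 0.567, adjusted p = 5.15e-06) with 2 UMIs of Egr1 in Epcam+ members. Lyz2 differed by 5.29 (SE 0.931, adjusted p = 0.00532), but 341 of its 388 member UMIs lay in the replicate 2 cell without Gata2. Over members with a Gata2 UMI it differed by 2.65 and still passed (adjusted p = 0.0233). Ctss, a lysosomal protease gene found in 2 members, differed by 11.30 (SE 2.36, adjusted p = 0.0243), and by 8.74 (adjusted p = 0.284) over members with a Gata2 UMI.

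Nr4a2, Ecm1, Malt1, Lpxn, Cytip and Mcm3 differed the other way. Malt1, a signalling scaffold of lymphocytes and mast cells, differed by -3.14 (SE 0.537, adjusted p = 0.00394). It stood at 462, 664 and 111 CPM in mast-like cells, against 50.7, 51.3 and 40.6 CPM in the remaining members, and in macrophages at 99.6 and 112 CPM in the Epcam+ Icam+ libraries against 6.67 CPM in the Epcam+ library. Nr4a2, an orphan nuclear receptor gene, differed by -4.16 (SE 0.623, adjusted p = 0.00119) and stood at 199.6, 77.5 and 143 CPM in mast-like cells against 7.8, 35.1 and 0 CPM in the remaining members. Lpxn lay mostly in mast-like cells too, at 62.4, 22.1 and 132 CPM against 0, 5.4 and 0 CPM. Cytip did not, at 249.6, 454 and 95.3 CPM in mast-like cells against 257, 399 and 203 CPM in the remaining members, and its macrophage level was 131 and 114 CPM in the Epcam+ Icam+ libraries against 6.67 CPM in the Epcam+ library. The part of the mast-like share in these differences was not tested.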

How the data were processed

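Lungs of E14.5 mouse embryos were sorted and sequenced as single cells in 3 libraries, 2 Epcam+ Icam+ and 1 Epcam+. The deposited counts are UMI counts per gene and barcode, made by the authors with Cell Ranger 5.0.1 for the Epcam+ Icam+ libraries and 3.0.2 for the Epcam+ library, per the file headers, whereas the submitters' processing notes name version 2.1.1 and the mm10 genome. The gene tables held 32285 and 31053 genes, of which 30406 were joined by ID. Library totals were 74170599, 67843828 and 84460347 UMIs over 12967 barcodes, none under 500 UMIs. The members and gene lists were chosen with earlier results of these data known.

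Counts were summed per class and library and tested with edgeR 4.0.16 (quasi-likelihood F test, TMM, filterByExpr, Benjamini-Hochberg threshold 0.05), with library as a block where classes were compared, because both classes came from the same library. DESeq2 1.42.0 was an alternative. Doublets were scored with scrublet in scanpy 1.11.5 at 0.8% per 1000 barcodes, and the highest scores were left out as an alternative only. Shares were compared after thinning to 3000 UMIs, which left out 1 member. Intervals are exact 95% binomial or Poisson. Folds against 0 use a floor of 3 counts over the group.

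Genes were named by fixed rules: the markers given with the rule, examples from the lists, and the 12 highest and 8 lowest log2 fold changes among genes past the threshold with at least 50 CPM and 1 direction in all libraries, or 6 each way in the other comparisons. Genes named by kind of member were picked after their values were seen. Scripts were tested on simulated data. The planned comparison by Mcpt8 was not run for lack of cells. Promoters are from RefSeq GRCm38.p6.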

Additional observations from a re-analysis of the deposited data

Results flagged for a closer look

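The sort difference, Epcam+ Icam+ over Epcam+, was unlike in members and in macrophages by edgeR's test of the difference itself for 12 named genes, as log2 values of members minus macrophages. It was higher in members for Ctss (11.30), Egr1 (5.92), Ccl4 (5.47), Lyz2 (5.29), Cd69 (5.22) and Ccl3 (3.70), and lower for Nr4a2 (-4.16), Ecm1 (-3.78), Malt1 (-3.14), Lpxn (-2.79), Cytip (-2.58) and Mcm3 (-2.04). Ctss had no UMI in Epcam+ members, so the size of its value is uncertain, and its call was lost over members with a Gata2 UMI. For Lyz2, 341 UMIs lay in 1 Epcam+ Icam+ replicate 2 member without a Gata2 UMI.

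Barcodes other than the members also carried the member genes. At least 5 UMIs of Mcpt8, Hdc and Cyp11a1 stood beside more than 5 UMIs of Epcam in 5 and 3 barcodes of the Epcam+ Icam+ libraries and in 10 of the Epcam+ library. All 18 held a UMI of the lung epithelial factor gene Nkx2-1, 17 held Gata2, and 5 reached the mast-like limit. Their median depth was 43268.5 UMIs. Whether such a barcode held 1 cell or more was not tested. In Epcam+ Icam+ replicate 1, 1 macrophage barcode held 136 UMIs of Cma1, which was the source of the macrophage value there.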

How the results depend on the processing

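No result reversed. Against macrophages, 968 genes higher and 992 lower became 552 and 545 with no replicate block, 1616 lower with no low-count filter and 635 lower with DESeq2; leaving out 1 library gave 717 to 1310 higher and 666 to 1372 lower. All 240 alternative values of the 20 named genes kept direction and call. Between the sorts in members, 626 higher and 355 lower became 114 and 28 with DESeq2, which gave no adjusted p for 2555 of 4391 genes, and 229 lower with members from 10 UMIs. For the difference between classes, 48 higher and 18 lower became 92 and 49 with RLE size factors, 20 and 1 with DESeq2, 75 and 51 with members from 10 UMIs, 79 and 49 with a C1q sum under 5, 51 lower with no low-count filter, and 108 and 65 over members with a Gata2 UMI, chosen after seeing the data. Calls were lost with DESeq2 for Ctss (6.41), Lyz2 (5.15), Ecm1 (-3.76) and Cytip (-2.57), for Lpxn with Epcam at most 2 UMIs (-2.33) and for Mcm3 without the highest doublet scores (-2.05). The cause was not tested. Thinned to 2000 UMIs, the Mki67 share in Epcam+ Icam+ replicate 2 was 0% and the Gata2 shares 54.5% and 58.1%. No paired analysis was possible because the sorts were compared as separate libraries, with 1 in the Epcam+ group. Leaving out a library there left no residual degrees of freedom and was not run. Few cells limit the Epcam+ library, with 13 members.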
